A study of Rattus norvegicus with 15 samples.

Results

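The translation factors and tRNA synthetases described here were every probe set whose only gene symbol begins with Eif or Eef, or is a tRNA synthetase symbol ending in ars, ars1 or ars2. They were 137 of 31042 probe sets and stood for 90 genes, 36 of which had more than 1 probe set. A further 7 probe sets that carry several symbols were left out. Gastrocnemius RNA of 15 male Wistar rats, bought at an age of 3.5 weeks, was measured on Affymetrix rat genome arrays, 1 for each rat. The 4 CN rats ate 15% casein and the 4 LP rats a calorie-matched diet with 8% casein for 4 weeks, whereas the 3 CN-R and 4 LP-R rats ate these same diets for 4 weeks and then, per the paper's methods, 15% casein until day 84. A fast of 16 h preceded sampling in every group, the labels keep the first diet until day 84, CN-R replicate 3 was not used here, and CN-R replicate 4 was placed by its title, since another label field calls that rat restricted.

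Each round of protein synthesis starts with charged tRNA. The tRNA synthetases join each amino acid to its tRNA, in mostly separate sets for the cytosol and the mitochondria. eIF2 brings the initiator tRNA to the small ribosomal subunit, eIF3 holds that subunit ready, and the eIF4 group binds the mRNA cap and unwinds the leader. eEF1 and eEF2 then carry the ribosome along the message. In muscle this machinery is known to be controlled mainly after transcription: mTORC1 phosphorylates the cap inhibitor 4E-BP1, eIF2 kinases such as GCN2 (Eif2ak4) respond to uncharged tRNA, and eEF2 kinase slows elongation.

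Most of these probe sets could not show a change. FARMS, with which the authors summarized the probes into log2 signals, pulls a probe set toward a constant when its probes do not move together. An SD over 0.01 across the arrays of a comparison was taken here as varying. By that measure, 26 of the 137 probe sets (21 genes) varied across CN and LP, and 26 (22 genes) across CN-R and LP-R. Of all 31042 probe sets, 3974 and 3100 did. Among the members, 13 probe sets varied in both sets of arrays, 13 in CN and LP only, 13 in CN-R and LP-R only, and 98 in neither. In CN and LP the largest SD below the threshold was 0.0084 and the smallest above it 0.014, of the Eif3c probe set 1388378_at, and in CN-R and LP-R they were 0.0027 and 0.018. For 57 genes no probe set varied in either set.

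Roles were assigned by gene symbol, with synthetases ending in ars2 taken as mitochondrial and the rest as cytosolic. The roles differed in how much could be seen. None of the 16 probe sets of the 13 mitochondrial synthetases varied in either set of arrays, and none of the 11 probe sets of eIF2B and the eIF2 kinases did. The kinase genes Eif2ak4 and Eif2ak3 (PERK) had constants of 6.15 and 6.54 in CN and LP, and Eif2b5, the catalytic subunit that recharges eIF2, had 7.12 and 8.20 for its probe sets. Eif2s1, the eIF2 subunit that those kinases phosphorylate, stood at 9.97. Of 27 probe sets of cytosolic synthetases 4 varied in CN and LP and 3 in CN-R and LP-R, whereas 7 and 6 of the 17 eIF3 probe sets did. For these constant probe sets no change can be given, and a constant says nothing on whether the RNA changed.

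Rank products, the method the paper names, served as the main test and ranked all probe sets over every pair of 1 restricted and 1 control array. Calls were made where the estimated share of false positives among calls (pfp) was at most 0.05. In LP against CN, 0 members were called higher, while of all probe sets 1.68% were (13.1% of those that varied). Lower calls were made for 8 member probe sets of 7 genes, 5.84% of the members against 1.58% of all probe sets, and 30.8% of the varying members against 12.4% of all varying probe sets. Among the 26 varying members 6 (23.1%) had groups that did not overlap, against 7.9% of all varying probe sets. The changes were negative for 18 of the 26, with a median of -0.05 on the log2 scale, whereas 42.4% of all varying probe sets had a negative change and their median was 0.02. Each change is given as restricted minus control mean log2 signal, with its standard error (SE).

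The calls depended on the test. limma called 0 members after Benjamini-Hochberg adjustment (smallest adjusted p 0.53), and 14 members (10.2%) had an unadjusted limma p under 0.05, against 7.54% of all probe sets. Both shares take in nearly constant probe sets. Of the 14, 1 was in eIF2B and the eIF2 kinases and 1 in the mitochondrial synthetases, where 0 probe sets varied. All calls by rank products fell on varying probe sets, and when those alone were ranked against each other only 20 of 3974 (0.503%) were called lower. These 20 included 2 members, Eif3a 1379485_at and Eif4g1 1390340_a_at. Without CN replicate 1, 2, 3 or 4 in turn, 4, 5, 4 and 4 members were called lower, and Eif3a 1379485_at, Eif4g1 1390340_a_at and Eif3c 1397674_at were among them each time. Over all probe sets the lower calls fell from 492 to 134, 223, 133 and 271 in these settings, so the shares above do not carry over to them.

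The called probe sets with the widest changes were those of Eif3a and Eif4g1. Eif4g1 encodes eIF4G1, the scaffold that bridges the cap-binding protein and eIF3. Its probe set 1390340_a_at read 9.40, 9.39, 9.84 and 9.21 in CN replicates 1 to 4, and 8.74, 9.21, 8.66 and 9.02 in LP replicates 1 to 4. Every LP rat lay below every CN rat, but LP replicate 2 (9.2103) and CN replicate 4 (9.2105) were all but equal. The lack of overlap rests on that gap, and so does the exact p below. CN replicate 3 was well above the rest. The change was -0.55 ± 0.19 (SE), 1.47-fold lower, with an exact two-sided permutation p of 0.0286, the smallest that 4 arrays against 4 allow. A fainter probe set of the gene, 1385152_at, was also called, at 7.56 ± 0.05 (SD, n = 4) in LP and 7.70 ± 0.10 (SD, n = 4) in CN, and there the groups overlapped (exact permutation p = 0.057). The brightest probe set of Eif4g1, 1388322_at, stood at 10.04 in both groups and did not vary, and neither did 1395702_at.

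**Figure D1:**
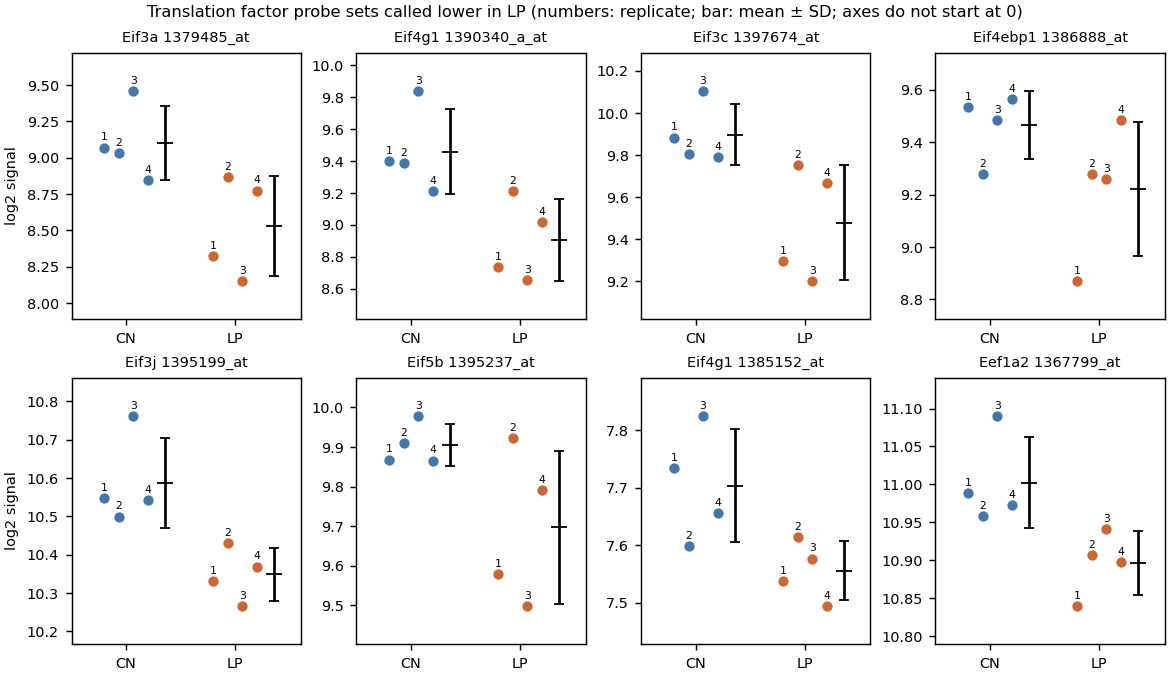
Log2 signals (y axis, not from 0) of the 8 called probe sets in CN (blue) and LP (orange), 1 point for each rat with its replicate number, and the mean ± SD of each group. The groups do not overlap for Eif4g1 1390340_a_at, Eif3c, Eif3j and Eef1a2. For Eif4g1 1390340_a_at, LP replicate 2 (9.2103) and CN replicate 4 (9.2105) are all but equal. CN replicate 3 is the highest rat in 7 of the 8 panels.

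A trio of eIF3 genes, the complex that keeps the small subunit open for the mRNA, were lower as well. Eif3a encodes its largest core subunit. Probe set 1379485_at read 9.07, 9.03, 9.46 and 8.85 in CN and 8.32, 8.87, 8.15 and 8.77 in LP. LP replicate 2 lay just above CN replicate 4, so the groups touched, and LP replicates 1 and 3 were far below. The change was -0.57 ± 0.22 (SE), or 1.49-fold lower (exact permutation p = 0.057). Its brighter probe set 1389968_at moved far less, by -0.06 ± 0.02 (SE), from 10.21 in each CN rat but the first, at 10.22, to 10.11 to 10.18 in LP. That difference had no overlap but was not called (pfp 0.056).

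Eif3c encodes another core subunit, and its probe set 1397674_at read 9.88, 9.81, 10.10 and 9.79 in CN and 9.30, 9.75, 9.20 and 9.67 in LP. The groups did not overlap, though LP replicates 2 and 4 came close to CN. The change was -0.42 ± 0.15 (SE), 1.33-fold lower, while the gene's other probe set, 1388378_at, changed by -0.01 ± 0.01 (SE) at a similar brightness of 10.16. For Eif3j, which encodes a loosely bound subunit at the decoding site, probe set 1395199_at read 10.55, 10.50, 10.76 and 10.54 in CN and 10.33, 10.43, 10.27 and 10.37 in LP. Every LP rat was below every CN rat, by -0.24 ± 0.07 (SE) on average, whereas the brighter Eif3j probe set 1388424_at was constant at 11.42. Of the varying eIF3 probe sets not called, those of Eif3l changed by -0.09 ± 0.06 (SE) and 0.02 ± 0.05 (SE).

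Eif5b encodes the GTPase that joins the ribosomal subunits, and its probe set 1395237_at read 9.87, 9.91, 9.98 and 9.87 in CN and 9.58, 9.92, 9.50 and 9.79 in LP. LP replicate 2 lay within CN, and the change of -0.21 ± 0.10 (SE) had an exact permutation p of 0.11. The gene's other probe sets were constant at 9.53 and 8.04. Eif4ebp1 encodes 4E-BP1, which holds back the cap-binding protein, and has 1 probe set here. It read 9.53, 9.28, 9.48 and 9.56 in CN and 8.87, 9.28, 9.26 and 9.48 in LP. LP replicate 1 was far below the others and the groups overlapped, with a change of -0.24 ± 0.14 (SE) and an exact permutation p of 0.057. Without LP replicate 1 the change was -0.13. Its relative Eif4ebp2 changed by -0.08 ± 0.09 (SE) and was not called, and the 3 probe sets of Eif4e, the cap-binding protein itself, stayed below the SD of 0.01.

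**Figure D2:**
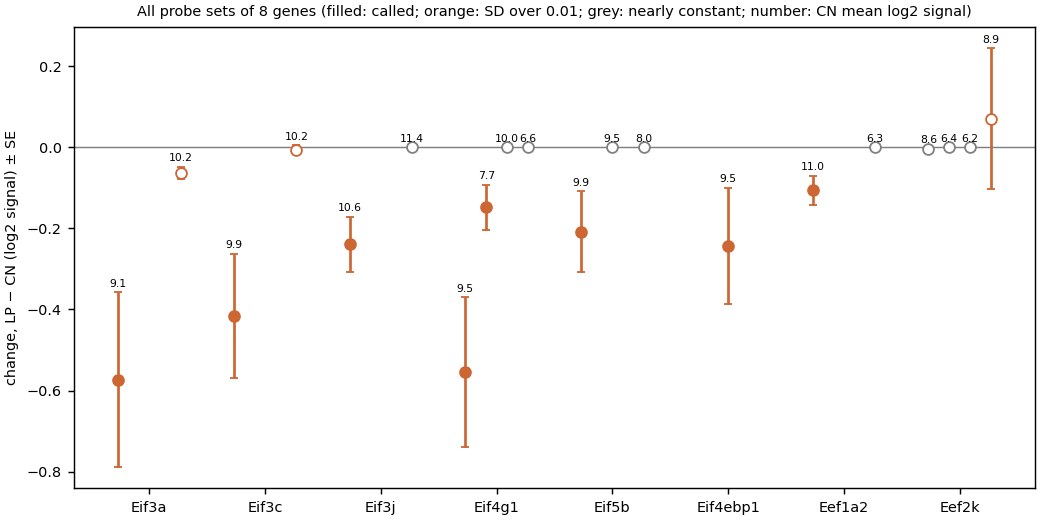
Change of log2 signal, LP minus CN, ± SE (y axis) for every probe set of 8 genes (x axis). Filled points were called, orange points varied, grey points were nearly constant, and the number is the CN mean log2 signal. The brightest probe set changed by -0.06 for Eif3a and -0.01 for Eif3c, less than the dimmer called one, whereas for Eif3j and Eif4g1 the brightest is nearly constant and gives no change.

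Within a gene, then, the probe sets differed. Of the 36 genes with several probe sets, 17 had at least 1 that varied in CN and LP and 6 had at least 1 called, but only Eif4g1 had more than 1 called. With the brightest probe set of each gene alone, 17 of 90 varied, 3 were called lower and the median change of those that varied was -0.01. The difference between probe sets of a gene was not tested, and which transcript each probe set reads was not analysed here.

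A set of 5 called probe sets also varied together from rat to rat, a pattern singled out after their values were seen. For Eif3a 1379485_at, Eif3c 1397674_at, Eif3j, Eif4g1 1390340_a_at and Eif5b, CN replicate 3 was the highest CN rat and LP replicates 1 and 3 were the lowest of all 8. Pearson's r between their deviations from the group means was 0.66 to 0.98 over the 8 arrays. Over all pairs of called probe sets the lowest r was 0.15, between Eif4ebp1 and the other called Eif4g1 probe set, 1385152_at. Whether array handling had a part in the pattern of the 5 was not tested. Moving together was not particular to these 5 probe sets: 151 of the 3974 varying probe sets had an r over 0.9 with their mean, 4 of these 5 among them. Eef1a2 followed another order in LP, with replicate 1 the lowest and replicate 3 the highest. In the late arrays the Eif3a, Eif3c and Eif4g1 probe sets again moved together, with an r of 0.90 to 0.98 over 7 arrays, and there LP-R replicate 2 was the highest.

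**Figure D3:**
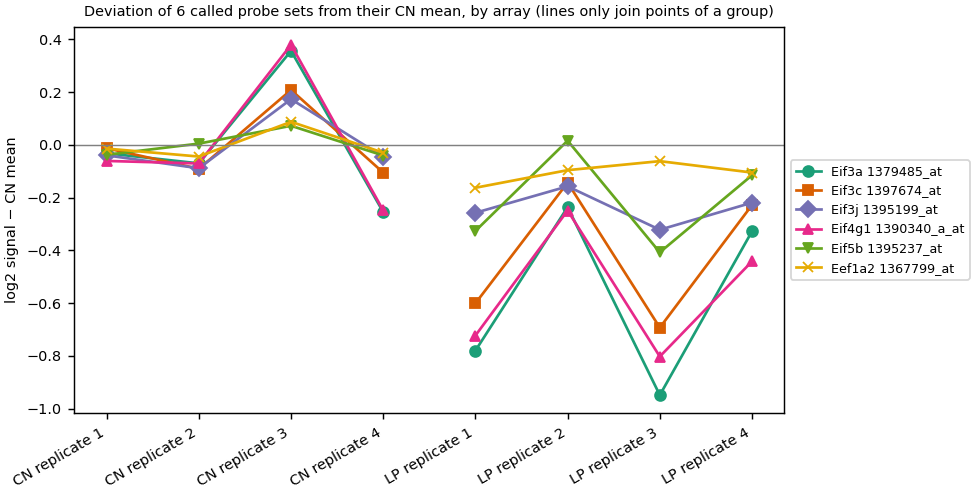
Log2 signal minus the CN mean (y axis) of 6 called probe sets in each CN and LP rat (x axis), with lines that only join the points of a group. CN replicate 3 is the highest CN rat for all 6, and LP replicates 1 and 3 are the lowest for all but Eef1a2.

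The stretches before the start of the genes that led the comparisons are shown because these genes changed most, with Iars1 for a synthetase that holds both motifs searched. Each runs 5′ to 3′ over the 150 bases before the RefSeq start in GRCr8. Capitals mark CACGTG, the E-box bound by the Myc and Mitf families, or TGATGNAA, the element bound by ATF4 with C/EBP partners, on either strand.
Eif4g1, chr11:93746368-93746517, minus strand: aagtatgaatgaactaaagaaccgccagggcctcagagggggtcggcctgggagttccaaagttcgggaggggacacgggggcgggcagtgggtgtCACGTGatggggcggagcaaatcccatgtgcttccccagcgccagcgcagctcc
Eif3a, chr1:269919026-269919175, minus strand: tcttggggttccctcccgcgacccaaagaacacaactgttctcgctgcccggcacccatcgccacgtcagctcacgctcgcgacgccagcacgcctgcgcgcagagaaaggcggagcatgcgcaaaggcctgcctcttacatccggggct
Eif3c, chr1:190583068-190583217, minus strand: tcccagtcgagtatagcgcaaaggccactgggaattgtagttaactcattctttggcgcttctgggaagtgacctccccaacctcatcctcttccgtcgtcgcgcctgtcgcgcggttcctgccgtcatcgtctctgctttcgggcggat
Eef2k, chr1:184824270-184824419, plus strand: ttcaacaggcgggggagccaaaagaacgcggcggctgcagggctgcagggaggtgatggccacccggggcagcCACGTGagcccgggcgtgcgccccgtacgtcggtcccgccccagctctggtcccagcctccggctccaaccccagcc
Iars1, chr17:15193653-15193802, minus strand: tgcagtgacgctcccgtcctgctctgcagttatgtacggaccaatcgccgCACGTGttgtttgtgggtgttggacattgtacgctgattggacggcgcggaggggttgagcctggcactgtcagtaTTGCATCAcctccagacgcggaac
Both searches ran over the 250 bases before the start in the 87 promoters listed for 83 of the 90 genes. The E-box was in 14 (16.1%) of them, against 5.59% of all 33469 promoters, and TGATGNAA in 6 (6.9%), against 3.4%. Of the 14 cytosolic synthetase genes with a promoter, 5 held TGATGNAA (Aars1, Iars1, Mars1, Nars1 and Tars1), and none of the 13 mitochondrial ones did. These are matches of letters only.

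Elongation factors moved by little. Eef1a2 encodes the eEF1A form of adult muscle, which delivers charged tRNA to the ribosome. Its probe set 1367799_at read 10.99, 10.96, 11.09 and 10.97 in CN and 10.84, 10.91, 10.94 and 10.90 in LP. No LP rat reached the CN range, and the change of -0.11 ± 0.04 (SE), 1.08-fold lower, was called (pfp 0.030). A second Eef1a2 probe set was constant at 6.26. Eef1a1, the form of most other tissues, went the other way without a call, by 0.05 ± 0.02 (SE) and 0.02 ± 0.02 (SE) in its probe sets, and reads shared with related copies cannot be set apart. Eef2, the translocase, read 11.15, 11.19, 11.16 and 11.16 in CN and 11.22, 11.24, 11.26 and 11.21 in LP. Every LP rat was above every CN rat, by 0.07 ± 0.01 (SE), the smallest limma p among members, but the pfp was 0.062 and the limma adjusted p 0.53.

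None of the synthetases chosen by symbol was called in LP. Iars1, which charges isoleucine tRNA, changed by -0.05 ± 0.03 (SE), Kars1 (lysine) by -0.01 ± 0.06 (SE), Sars1 (serine) by -0.01 ± 0.03 (SE) and Gars1 (glycine) by 0.01 ± 0.05 (SE). Their unadjusted exact permutation p-values were 0.23 to 0.94. Aars1, Lars1, Tars1, Wars1, Mars1 and Vars1 did not vary in CN and LP.

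Genes next to the machinery that the symbol rule leaves out were read against the same shares in LP. Of all probe sets 1.58% were called lower and 1.68% higher, and of the varying ones 12.4% and 13.1%. These shares count probe sets, whereas the lists are counted mostly in genes. Varying genes were 3 of 6 synthetase partners, 4 of 16 mTORC1 genes and 9 of 13 integrated stress response genes. Of 6 synthetase partners and subunits on the array, with 11 probe sets, 2 genes with 3 probe sets were called lower: Eprs1, the glutamyl-prolyl synthetase, by -0.41 ± 0.18 (SE) and -0.24 ± 0.13 (SE) in its called probe sets, and Aimp1, a scaffold of the multisynthetase complex, by -0.11 ± 0.03 (SE). Of 16 mTORC1 pathway genes 1 was called, Deptor, an inhibitor of mTOR, higher by 0.22 ± 0.06 (SE) in its called probe set. Its other probe set also varied and went the opposite way without a call, by -0.20 ± 0.16 (SE, pfp 0.065). The difference between these Deptor probe sets was not tested. Of 13 genes of the integrated stress response Atf3 was called higher and Cebpb, Chac1 and Ddit4 lower, and Ddit4, an inhibitor of mTORC1, had the widest error, at -0.72 ± 0.70 (SE). None of the 11 release and poly(A)-binding genes and none of the 8 mitochondrial translation factors was called. In LP-R against CN-R the only call in these lists was Atf3, lower by -0.43 ± 0.47 (SE).

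Markers of other cell types were measured beside the members. The 10 muscle fiber markers were bright on every array, with summed log2 signals of 134.5 to 134.6 in LP and 134.4 to 134.7 in CN. Of all varying probe sets 13.1% were called higher in LP and 12.4% lower. Of 6 endothelial markers 5 varied and 3 were called higher: Kdr by 0.40 ± 0.08 (SE), Cldn5 by 0.19 ± 0.12 (SE) and Tie1 by 0.14 ± 0.09 (SE). Tek changed by 0.10 ± 0.06 (SE) and Vwf by -0.01 ± 0.05 (SE) without a call, and Pecam1 was constant. The summed signal of the 6 endothelial markers was 49.8 to 50.7 in LP against 49.1 to 49.6 in CN, without overlap. Of 7 fibroblast markers 2 collagens were called lower, in 1 probe set each: Col1a1 by -0.19 ± 0.16 (SE) and Col1a2 by -0.17 ± 0.11 (SE). Their other probe sets changed by -0.09 ± 0.13 (SE) and -0.11 ± 0.11 (SE) without a call. Col3a1, Dcn and Lum changed by 0.05, 0.04 and 0.04, each ± 0.07 (SE), without a call. The fibroblast sums were 75.6 to 76.1 in LP and 75.1 to 76.9 in CN. Of 7 adipocyte markers 1 was called higher, over sums of 50.3 to 54.2 and 50.4 to 52.8. Both of these lists overlapped between the groups. The 5S rRNA control was 7.74 to 7.78 in LP and 7.81 to 7.95 in CN, and the 5′ actin control 11.31 to 11.39 and 11.34 to 11.40. None of the 7 leukocyte, 3 Schwann cell, 2 satellite cell and 2 erythroid markers was called in LP. The part of these cells and controls in the lower calls of the translation factors was not tested. In muscle RNA, fewer cells of a type and less RNA per cell cannot be told apart.

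After rebound feeding, 1 member was called. Against a background of 0.345% of all probe sets called higher in LP-R (3.45% of those that varied), the only member was Eef2k (0.73% of the members), and 0 members were called lower, against 0.171% and 1.71%. These shares are unsettled: 107 probe sets were called higher and 53 lower, but 55 and 134 when permuted values of both directions were pooled, and leaving out 1 array gave 30 to 148 higher and 2 to 133 lower. Eef2k encodes the kinase that inhibits eEF2. Its probe set 1389999_at read 6.88, 6.98 and 7.35 in CN-R replicates 1, 2 and 4 and 7.42, 7.48, 7.47 and 7.18 in LP-R replicates 1 to 4. LP-R replicate 4 lay below CN-R replicate 4, the rat with the ambiguous label, and every other LP-R rat was above all CN-R rats. The change was 0.32 ± 0.16 (SE), 1.25-fold higher (pfp 0.0014, exact permutation p = 0.086). With CN-R replicate 4 counted as LP-R it was 0.45.

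In LP-R, 1 of 10 muscle fiber genes (Myh1, in some of its probe sets) and 1 of 7 leukocyte genes (Lyz2) were called higher. Lower calls fell on 1 of 7 adipocyte genes (Cfd) and 1 of 2 satellite cell genes (Myod1). Of all varying probe sets 3.45% were called higher and 1.71% lower. The other varying genes of these lists were not called. Myh2 (-0.05), Pvalb (-0.09), Actn3 (-0.03), Cd74 (-0.04), Adipoq (-0.20) and Cdh15 (-0.05) had negative changes, and Tnnt3 (0.04) a positive one. The part of these markers in the Eef2k call was not tested.

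Of the other Eef2k probe sets, 1369638_at alone could be compared. It changed by -0.05 ± 0.07 (SE) in LP-R and by 0.07 ± 0.17 (SE) in LP, and the remaining pair was nearly constant in CN-R and LP-R and so gives no change. The difference between probe sets was not tested. In CN and LP, 1389999_at was itself constant, at 6.41. Ranking the varying probe sets alone, 5 of 3100 (0.161%) were called higher and Eef2k was not among them.

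**Figure D4:**
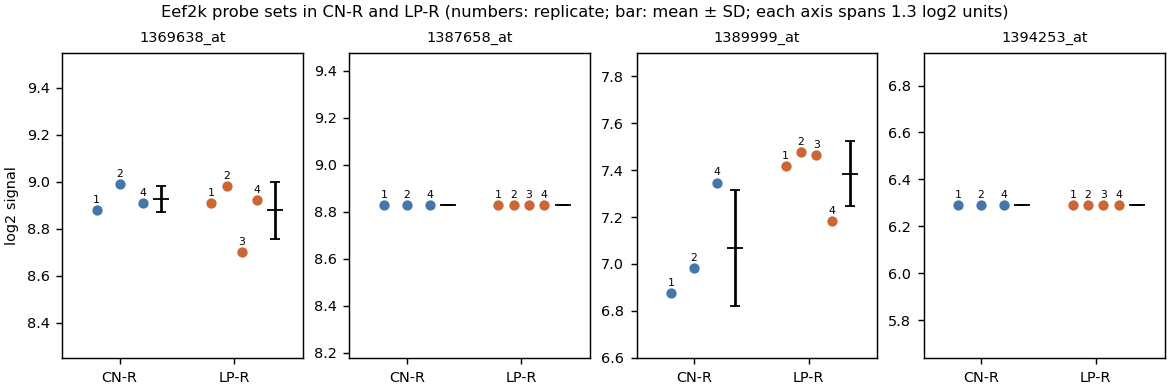
Log2 signals (y axis, 1.3 log2 units in each panel) of the 4 Eef2k probe sets in CN-R (blue) and LP-R (orange), 1 point for each rat with its replicate number, and the mean ± SD of each group. 1389999_at was called, with CN-R replicate 4 between the other CN-R rats and most LP-R rats, 1369638_at was not, and the flat panels are nearly constant probe sets that cannot show a change.

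No varying member had groups without overlap in LP-R against CN-R, where 3.84% of all varying probe sets did. limma called 0 (smallest adjusted p 0.97), and 9 members (6.57%) had an unadjusted limma p under 0.05, against 5.04% of all. Both shares take in nearly constant probe sets, for which no change can be given. Of the 9, 1 was in eIF2B and the eIF2 kinases and 1 in the mitochondrial synthetases, where 0 probe sets varied. The share is thus no result about the members. Negative changes were found for 18 of 26 varying members, with a median of -0.01, against 66.0% and a median of -0.02 for all varying probe sets. The genes that led the early comparison were close to their controls, at -0.05 ± 0.09 (SE) for Eif3a 1379485_at, -0.07 ± 0.14 (SE) for Eif3c 1397674_at, 0.07 ± 0.16 (SE) for Eif4g1 1390340_a_at and 0.02 ± 0.06 (SE) for Eef1a2. Eif3j, Eif5b and Eif4ebp1 did not vary there. The synthetases Mars1 (methionine) and Hars1 (histidine) changed by -0.08 ± 0.08 (SE) and -0.08 ± 0.07 (SE), and Vars1 (valine) by -0.02 ± 0.06 (SE). Eif3l changed by -0.14 ± 0.11 (SE), Eif4g2, a relative of eIF4G1 that lacks the cap-binding partner's site, by -0.08 ± 0.06 (SE), Eif5a, which helps the ribosome past proline runs, by -0.01 ± 0.05 (SE), and Eif2s3, a subunit of eIF2, by 0.03 ± 0.03 (SE).

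**Figure D5:**
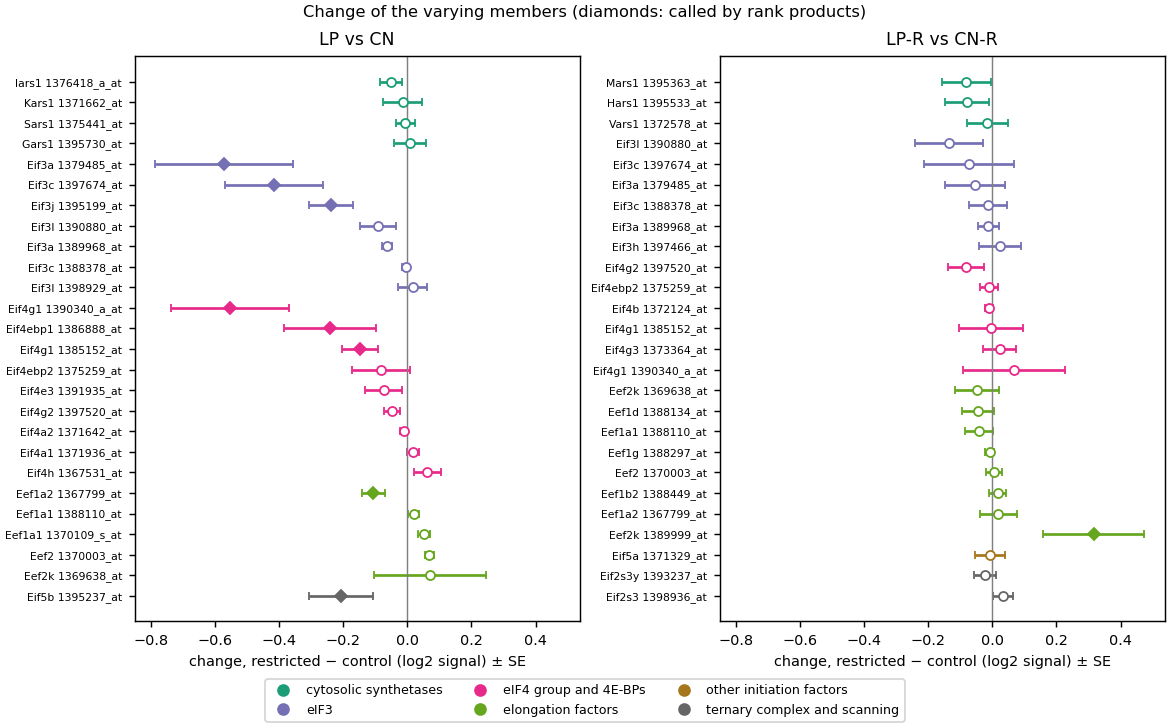
Change of log2 signal, restricted minus control, ± SE (x axis) for the 26 varying members of LP against CN (left) and the 26 of LP-R against CN-R (right), coloured by role, with diamonds for called probe sets. The 8 called probe sets on the left all lie below 0 and belong to initiation factors apart from Eef1a2 and the initiation inhibitor Eif4ebp1, and the single call on the right is Eef2k.

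Whether the LP change and the LP-R change differed was tested for the 2073 probe sets that varied in both sets of arrays, 13 of them members, by relabelling rats within each set in all 2450 ways. The widest difference was that of Eif4g1 1390340_a_at, -0.62 (exact permutation p = 0.049, 0.66 after Benjamini-Hochberg adjustment). For Eif3a 1379485_at it was -0.52 (p = 0.10 by the same exact test), for Eif3c 1397674_at -0.34 and for Eef1a2 -0.12. None passed after adjustment, so a change in LP that differs from the change in LP-R was not shown for any member.

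Within LP-R the rats of replicate numbers 1 and 2 stood apart from those of 3 and 4. In 17 of 26 varying members (65.4%) these pairs did not overlap, and in 61.4% of all varying probe sets. Hars1 read 7.32 and 7.30 in LP-R replicates 1 and 2 and 7.58 and 7.46 in replicates 3 and 4, and Mars1 read 7.28 and 7.29 and then 7.54 and 7.53. Eef1a2, Eef1d, Eef1g, Eef2, Eif5a and Eif3l went the same way, whereas Vars1, Eef1a1 and Eef1b2 went the other way. The 5′ Gapdh control was 13.52 and 13.56 in replicates 1 and 2 and 13.67 and 13.66 in replicates 3 and 4. Its part in these differences was not tested. In LP, 9 of 26 (34.6%) varying members split in this manner, against 42.6% of all varying probe sets.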

How the data were processed

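The deposited log2 signals were made by the authors with FARMS in R from Affymetrix rat genome arrays, per the paper's methods, with versions not given in the sources used here. Constants of the nearly constant probe sets differ between the early and late arrays, so each comparison stayed within its own set. The 57 control probe sets were left out and the signals used as deposited, and precision is limited by how few arrays there are. Python 3.11.15 with numpy 2.4.6 ran rank products on every restricted and control pair (100 permutations, seed 1). Each direction was read against permuted values of that direction. limma 3.58.1 ran in R 4.3.3. Both were also run on simulated data, and the outcome is not given here. Exact permutation tests of single probe sets used all 70 or 35 splits of the arrays and are not adjusted over probe sets. Promoters are RefSeq's, of GRCr8.

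The members, gene lists and tests were chosen with earlier results of these data known. Probe sets were named where called or without overlap, where they had the smallest limma p of a role, and for 17 genes fixed by name. Eif4g1, Eef2k and other genes read by several probe sets are given by probe set. Genes outside the rule came from 5 lists (synthetase partners, release and poly(A) binding, mitochondrial translation, mTORC1 and integrated stress response), and cell type markers from 8. Alternatives were quantile normalization, median centring, ranking of varying probe sets alone, a filter on dim probe sets, limma, a replicate block, a term for replicate numbers 1 and 2, leaving out each array, 1 probe set for each gene and CN-R replicate 4 as LP-R. A pooled null of both directions was added after the data were seen.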

Additional observations from a re-analysis of the deposited data

Results flagged for a closer look

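Of 78 groups of 4 arrays of varying members, 3 held a rat far from the others, and chance flags about 1 in 20 such groups. For Eef2 1370003_at, CN replicate 2 was at 11.19 and the other CN rats at 11.15 to 11.16, a gap of 0.909 of the range. For Eef1a1 1388110_at the same rat was at 12.04 and the others at 11.97 to 11.98, a gap of 0.946. For Eif4a2 1371642_at, an RNA helicase of the eIF4 group, LP replicate 4 was at 12.80 and the others at 12.77 to 12.78, a gap of 0.874. None of these probe sets was called.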

How the results depend on the processing

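Quantile normalization and median centring left all counts of called members as they were, and the added pooling of permuted values did too. With the filter on dim probe sets 6 members were called lower in LP, and 367 of all probe sets. Eef1a2 (pfp 0.054) and Eif5b (pfp 0.055) lost their calls there, and Eef2k 1389999_at kept its call in LP-R. Ranking the varying probe sets alone left 2 lower calls in LP and 0 higher calls in LP-R. limma, limma with a replicate block and limma with a term for replicate numbers 1 and 2 each called 0 members in either comparison. Rank products with a replicate block over same-number pairs called 1 member higher and 6 lower in LP and 0 higher in LP-R, and pairs within numbers 1 and 2 or 3 and 4 called 1 higher and 9 lower in LP. The added higher call was Eef2k 1369638_at. Under the block Eef2k 1389999_at was not called in LP-R. The labels do not say that a number is shared, and same-numbered rats did not all deviate together (r of deviations -0.03 to 0.55 in CN and LP, 0.04 to 0.22 in CN-R and LP-R), so the numbers were not taken to pair the rats. Leaving out an array gave 4 to 9 lower and 0 to 1 higher calls in LP, with 4, 5, 4 and 4 lower without CN replicates 1 to 4, and 1 higher call each time in LP-R. Eif3a 1379485_at, Eif4g1 1390340_a_at and Eif3c 1397674_at kept their call in each. With CN-R replicate 4 as LP-R, 3 members were called higher (Eef2k and the early called Eif4g1 probe sets), and over all probe sets the higher calls rose from 107 to 332. With 1 probe set for each gene the median LP change was -0.012. Median changes moved between -0.05 and -0.04 in LP and between -0.03 and -0.01 in LP-R as arrays were left out. Among 390 alternatives of single changes no called direction reversed, 29 lost and 4 gained a call, and 25 uncalled changes turned sign. The number of arrays limits the precision.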
